A study of Mus musculus with 4 samples.

Results

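The 39 genes described here encode proteins that copy DNA and divide the cell. They were taken by symbol from a table of 22667 mouse genes. Of them, 15 act in DNA replication or at the entry into S phase, and 24 act in mitosis and cytokinesis. All 39 were found, and all 39 passed the minimum of 75 reads summed over the libraries, as did 12497 genes in all. The libraries come from N2a (Neuro-2a) cells, a neuroblastoma line from the mouse, grown in DMEM with FBS. Cells were transfected for 48 h with either non-targeting siRNA (siControl) or siRNA against Arglu1 (siArglu1), by lipofection. They then received ethanol as vehicle (Veh) or dexamethasone (Dex, 100 nM), which is a synthetic glucocorticoid, for 4 h. These make 4 groups, siControl and siArglu1 cells each with Veh or Dex. Each group has 1 library, made from the pooled mRNA of 3 cultures, so no pair of groups has replicates and no test was made between a pair of libraries.

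ARGLU1 is a nuclear protein that coactivates the glucocorticoid receptor (GR), lies close to it in the cell, and interacts with splicing factors. Genes of the cell cycle are transcribed in waves. E2F factors drive the genes of the G1/S transition and of replication, while the MuvB complex with B-MYB and FOXM1 drives the genes of G2 and mitosis, often through CCAAT boxes and the cell cycle homology region (CHR). At origins, CDC6 helps to load the MCM helicase, CDC45 activates it, and PCNA holds polymerases on the DNA. In mitosis, CDK1 with cyclin B starts the process, Aurora and Polo kinases and kinesin motors build the spindle, and the checkpoint holds anaphase until every kinetochore is attached. Neuroblastoma cells divide without stop in culture and keep many traits of sympathetic neuroblasts.

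Reads on genes came to between 66074574 and 86541444 per library, and the TMM factors that scale them differed by little from 1 (lowest 0.984). Arglu1 itself stood in siArglu1 at 26.4% of siControl in vehicle and at 22.5% in Dex. Of 12 markers of sympathetic and neuronal cells, 10 had a cRPKM (RPKM corrected for the mappable part of the gene) of at least 1 in every library. The defining marker Hand2 (219 to 328 cRPKM) was among them, while Nefl and Nefm were at 0.03 or less. The summed cRPKM of the 12 markers was 1530.07 (Veh) and 1544 (Dex) in siControl cells and 2092 (Veh) and 2049 (Dex) in siArglu1 cells, so that it was higher in both siArglu1 libraries. The sums of 7 fibroblast, 6 glial and 5 immune markers stayed between 0.44 and 2.19 cRPKM in all libraries, with Ptprc, Cd3e, Aqp4, Olig2 and Col3a1 at 0 cRPKM. The markers did not all move one way, since Th stood at 41.7% and 53.7% of siControl (vehicle and Dex), Ncam1 at 76.8% and 93.4%, and Chga at 107.8% and 99.5%. Whether the change in the neuronal markers has a part in the values below was not tested.

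The cell cycle genes were abundant. Their median cRPKM was 58.3 (Veh) and 56.2 (Dex) in siControl cells and 50.1 (Veh) and 48.1 (Dex) in siArglu1 cells, against at most 11.02 for the 12497 genes compared. Per length, Pcna was the highest (235 to 274 cRPKM) of the replication genes, and Top2a, Ccnb1 and Birc5 led the mitosis genes in siControl Veh with 220.5, 194.85 and 155.54 cRPKM. Kif15, a spindle kinesin, had the lowest level (9.04 to 9.73 cRPKM). Even this gene had at least 2905 reads in each library, so counting error was small for all 39.

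**Figure D1:**
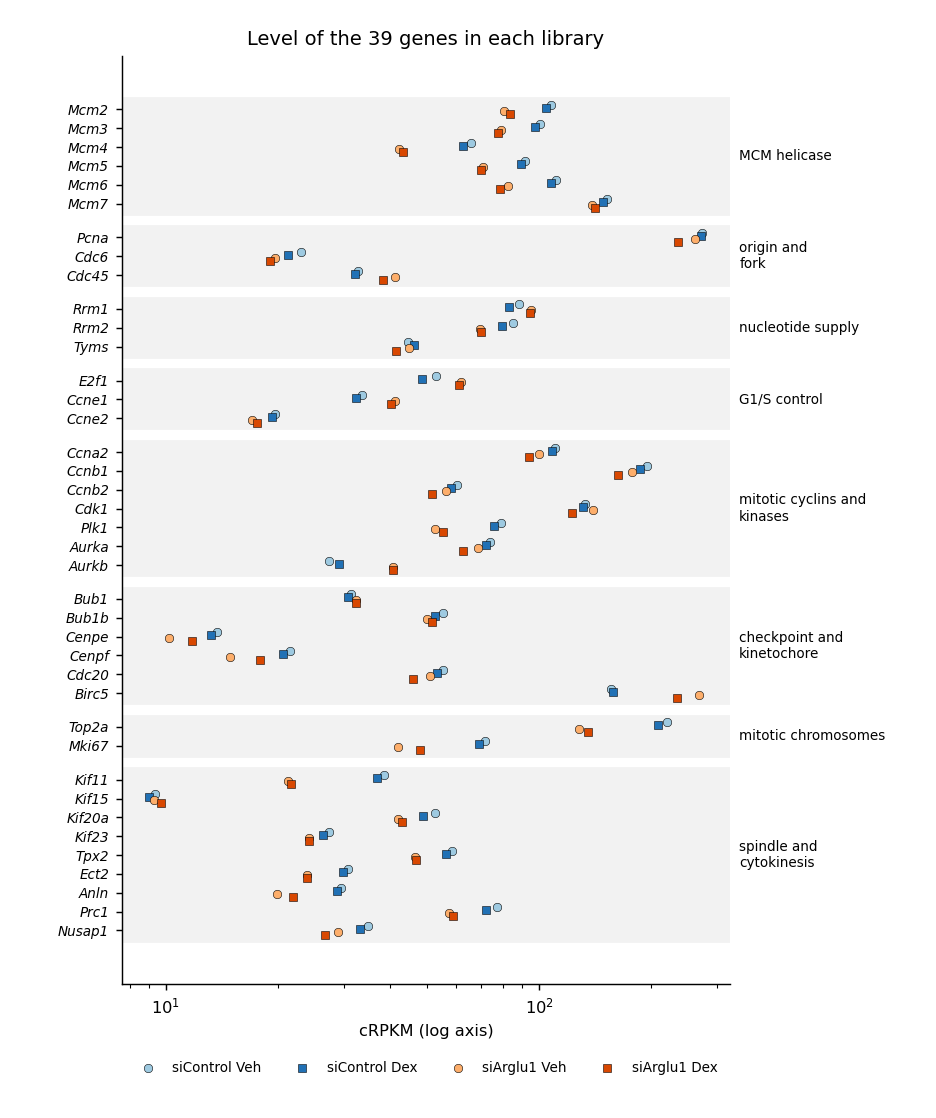
cRPKM (log axis) of the 39 genes in siControl (blue) and siArglu1 (orange) cells with vehicle (circles) or Dex (squares), grouped by role, with 1 library per point. Pcna, Top2a and Birc5 sit at the right, between 128 and 274 cRPKM, and Kif15 at the left, between 9.04 and 9.73.

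The first question was what the loss of Arglu1 did to these genes. The 2 knockdown pairs, siArglu1 Veh against siControl Veh and siArglu1 Dex against siControl Dex, share no library. The genes took 0.883% (Veh) and 0.851% (Dex) of all reads in siControl cells, but 0.726% (Veh) and 0.721% (Dex) in siArglu1 cells. As summed CPM (reads scaled to a common library size), siArglu1 cells held 84.2% of the siControl sum in vehicle and 84.3% in Dex. Top2a had the most reads of the 39; without it the sums stood at 87.9% and 87.1%, and without Top2a and Mki67 at 90.2% and 88.6%. In RNA of a whole culture, fewer dividing cells and less RNA per cell cannot be told apart.

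Gene by gene, log2 ratios of scaled reads lay between -0.83 and 0.82 in the vehicle pair and between -0.78 and 0.57 in the Dex pair. The median was -0.18 in vehicle and -0.20 in Dex, against 0.0038 and 0.0031 for all genes compared. In both pairs, 29 of the 39 (74.4%) had a ratio below 0, against 42.9% of all genes compared. A ratio above 0 in both pairs was found for 8, against 5440 of the 12497 genes. Only Cdk1 and Tyms had opposite signs, against 1694 of the 12497 genes. By a size of 0.3 in both pairs, 12 of 39 (30.8%) were lower, beside 21.4% of all genes, and 3 of 39 (7.69%) were higher, beside 20.5%. Among the 6725 genes that are at least as abundant as the lowest of the 39 (mean cRPKM of 9.36 or more), the shares were 18.2% lower and 18.4% higher. The members thus leaned to the lower side, where genes at large were evenly divided.

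The changes were small. By the larger size of 0.81, 2 of 39 passed in vehicle, Kif11 lower and Birc5 higher, where 15.8% of all genes did. No member passed in Dex, where 12.1% of all genes did. None passed 0.81 in both pairs, beside 5.07% of all genes lower and 4.83% higher. Exact 95% intervals from the reads of both libraries cover counting error only and are narrow at this depth. In vehicle they lay below 0 for 29 members and above it for 8. In Dex they lay below 0 for 30 members and above it for 8. Such intervals were not counted over all genes. By sign alone, 29 of the 39 were below 0 in vehicle and 31 in Dex, beside 6211 and 6209 of the 12497 genes. As an alternative, all 4 libraries went into an edgeR quasi-likelihood fit with additive terms for siRNA and for Dex, which leaves 1 residual degree of freedom. At a Benjamini-Hochberg adjusted p of 0.05 it called 18 members lower (46.2%, beside 30.9% of all genes) and 5 higher (12.8%, beside 30.8%). It treats the Dex pair as a repeat of the vehicle pair, so its error is not that of replicate cultures.

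Replication and mitosis genes did not come apart by their medians. The median log2 ratio of the 15 replication genes was -0.18 in vehicle and -0.17 in Dex, and that of the 24 mitosis genes was -0.19 and -0.21. Within each group the genes ran both ways. Of the 15 replication genes, 5 (33.3%) were lower by 0.3 in both pairs and 1 was higher. Of the 24 mitosis genes, 7 (29.2%) were lower and 2 were higher, beside the 21.4% and 20.5% of all genes. With the trend on transcript length removed, 3 of the 15 and 3 of the 24 were lower, beside 19.8% of all genes.

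**Figure D2:**
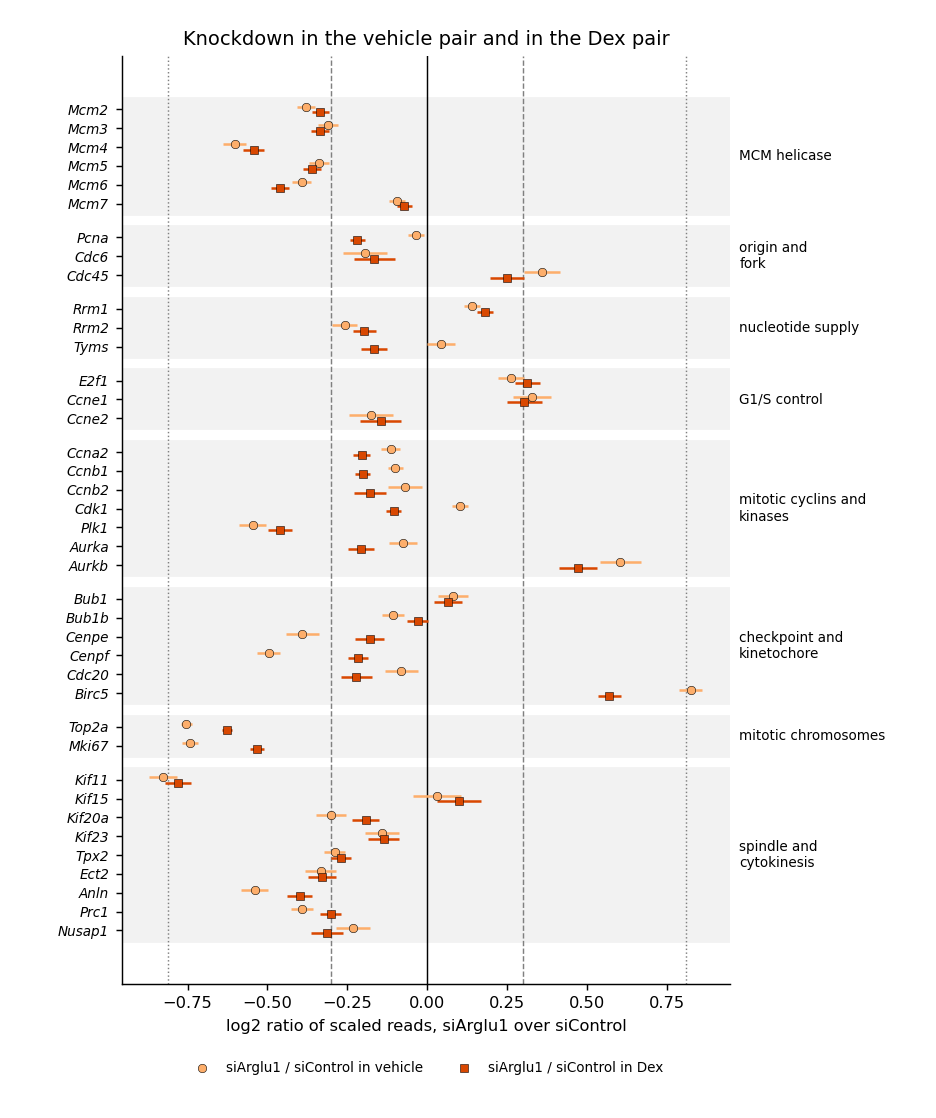
Log2 ratio of scaled reads, siArglu1 over siControl, for each gene in the vehicle pair (light circles) and in the Dex pair (dark squares). Bars are exact 95% intervals of counting error, dashed lines mark 0.3 and dotted lines 0.81. In both pairs Kif11 and Top2a lie farthest to the left and Birc5 and Aurkb to the right.

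The MCM genes encode the 6 subunits of the ring that unwinds DNA at the fork. Their median log2 ratio was -0.36 in vehicle and -0.35 in Dex. Of the 6, 5 were lower by 0.3 in both pairs, beside 21.4% of all genes. With the trend on transcript length removed, 3 of the 6 were, beside 19.8% of all genes. Mcm4 (ENSMUSG00000022673) had cRPKM of 65.7 (Veh) and 62.6 (Dex) in siControl cells and of 42.3 (Veh) and 43.2 (Dex) in siArglu1 cells. Both siArglu1 libraries lay below both siControl libraries, with log2 ratios of -0.60 (interval -0.64 to -0.57) and -0.54 (-0.58 to -0.51). Mcm2, Mcm3, Mcm5 and Mcm6 lay closer to 0, between -0.31 and -0.39 in vehicle and between -0.33 and -0.46 in Dex. Mcm7 stood apart from its partners. Its cRPKM was 152 and 148 in siControl (Veh and Dex) against 139 and 142 in siArglu1, a log2 ratio of -0.095 (-0.12 to -0.070) in vehicle and -0.072 (-0.095 to -0.049) in Dex. The intervals of Mcm7 do not meet those of the other MCM genes in either pair.

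Genes that act beside the helicase were divided. Cdc6, the loader, was at 87.4% of siControl in vehicle and at 89.1% in Dex. Pcna, the sliding clamp, had a log2 ratio of -0.036 in vehicle (-0.061 to -0.011) and -0.22 in Dex (-0.24 to -0.20). Once the trend of all genes with transcript length was taken out, its ratios were -0.25 and -0.34, and once that with GC content was taken out, its vehicle ratio was 0.017. Cdc45, which joins the MCM ring to form the active helicase, went the other way, with cRPKM of 32.8 and 32.1 in siControl against 41.0 and 38.3 in siArglu1 and log2 ratios of 0.36 (0.30 to 0.41) and 0.25 (0.20 to 0.30). Of the enzymes that supply nucleotides, Rrm1, the large subunit of ribonucleotide reductase, had log2 ratios of 0.14 and 0.18, and Rrm2, the small subunit, had -0.26 and -0.20. The genes of this one enzyme thus lay on opposite sides of 0 in both pairs. Tyms (thymidylate synthase) was at 0.042 (-0.0023 to 0.086) in vehicle and at -0.17 (-0.21 to -0.13) in Dex.

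Genes of the G1/S transition were divided as well, with E2f1 and Ccne1 above 0 and Ccne2 below it. E2f1, a factor that turns on replication genes, had cRPKM of 52.8 and 48.7 in siControl against 61.9 and 60.9 in siArglu1, with log2 ratios of 0.26 (0.22 to 0.30) and 0.31 (0.27 to 0.35). Ccne1, one of the E-type cyclins that drive cells into S phase, was at 33.5 and 32.3 against 41.1 and 40.0, with log2 ratios of 0.33 (0.27 to 0.39) and 0.30 (0.25 to 0.36). Its paralog Ccne2 lay on the other side of 0, with -0.18 (-0.25 to -0.11) and -0.15 (-0.21 to -0.083). Of the 3, 1 was higher by 0.3 in both pairs, beside 20.5% of all genes. With the trend on transcript length removed, 0 were, beside 19.9% of all genes.

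Among the mitotic cyclins and kinases, Plk1 and Aurkb marked the ends. Plk1 (ENSMUSG00000030867), the Polo kinase of centrosomes and kinetochores, had cRPKM of 78.9 and 75.9 in siControl (Veh and Dex) against 52.8 and 55.4 in siArglu1. Its log2 ratios were -0.55 (-0.59 to -0.50) and -0.46 (-0.50 to -0.42). Aurkb (ENSMUSG00000020897), the kinase of the chromosomal passenger complex, was at 27.4 and 29.1 against 40.7 and 40.5. Its log2 ratios were 0.60 (0.54 to 0.67) and 0.47 (0.41 to 0.53). The libraries of the knockdown and of the control did not overlap for either gene. Ccna2, Ccnb1, Ccnb2 and Aurka were closer to 0, between -0.070 and -0.11 in vehicle and between -0.18 and -0.21 in Dex. Cdk1, the catalytic partner of the A- and B-type cyclins, had 0.10 (0.079 to 0.13) in vehicle and -0.11 (-0.13 to -0.081) in Dex.

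Birc5 (ENSMUSG00000017716) encodes survivin, the partner of Aurora B in the passenger complex, and had the highest knockdown ratio of the 39 in both pairs. Its cRPKM was 155.54 (Veh) and 157.36 (Dex) in siControl cells against 268.89 (Veh) and 234.78 (Dex) in siArglu1 cells. That is 177% of siControl in vehicle and 148% in Dex, with log2 ratios of 0.82 (0.79 to 0.86) and 0.57 (0.53 to 0.60). Aurkb and Birc5, which work in the same complex, were the members with the highest ratios in both pairs. The checkpoint kinase genes lay near 0, Bub1 at 0.080 and 0.064 and Bub1b at -0.11 and -0.030. Cdc20, which activates the anaphase-promoting complex, was at -0.081 and -0.22. The kinetochore genes Cenpe and Cenpf had -0.39 and -0.50 in vehicle, but -0.18 and -0.22 in Dex.

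Kif11, a gene of the spindle, and Top2a, a gene of mitotic chromosomes, held the lowest ratios in both pairs. Top2a (ENSMUSG00000020914), the topoisomerase that untangles sister chromatids, had cRPKM of 220.5 (Veh) and 207.72 (Dex) in siControl cells and of 127.71 (Veh) and 135.25 (Dex) in siArglu1 cells. The level was 59.3% of siControl in vehicle (log2 ratio -0.75, -0.77 to -0.74) and 64.8% in Dex (-0.63, -0.64 to -0.61). Mki67 (ENSMUSG00000031004), whose protein coats mitotic chromosomes and marks dividing cells, was at 71.6 and 69.2 against 41.8 and 48.1, or 59.8% and 69.1% of siControl. Both genes were lower in each siArglu1 library than in either siControl library.

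Kif11 (ENSMUSG00000012443) encodes Eg5, the kinesin that pushes the spindle poles apart. It had cRPKM of 38.6 (Veh) and 36.9 (Dex) in siControl cells against 21.3 (Veh) and 21.6 (Dex) in siArglu1 cells. These are 56.4% and 58.3% of siControl, the lowest shares of the 39 in either pair, with log2 ratios of -0.83 (-0.87 to -0.78) and -0.78 (-0.82 to -0.74). Kif15, a kinesin that can take over from Eg5 in spindle assembly, did not share this. Its cRPKM was 9.35 and 9.04 in siControl against 9.33 and 9.73 in siArglu1, with log2 ratios of 0.030 (-0.045 to 0.10) and 0.098 (0.029 to 0.17). Of the genes of cytokinesis, Anln (anillin of the contractile ring) was at -0.54 and -0.40, Prc1 (bundler of the central spindle) at -0.39 and -0.30, and Ect2 (which activates RhoA at the furrow) at -0.33 and -0.33. Kif20a, Kif23, Tpx2 and Nusap1 lay between -0.14 and -0.31 in both pairs.

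Part of this order went with the length of the transcript. In all genes compared, the knockdown ratio fell with mappable length, with a Spearman's rho across 12484 genes of -0.40 in vehicle and -0.23 in Dex. Among the 39 it was -0.59 in vehicle and -0.39 in Dex. Genes within a library share its RNA and its preparation and are not replicates, so these are descriptions. In the shortest 1/20 of genes (median 443 nt) the median log2 ratio in vehicle was 0.34, and in the longest (median 8817 nt) it was -0.50. Birc5, with 898 nt, is the shortest member, and Cenpf, with 10975 nt, is the longest.

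With the trend on length removed by a lowess fit, 26 of the 39 (66.7%) stayed below 0 in both pairs, beside 43.8% of all genes. By the size of 0.3 in both pairs, 6 of 39 (15.4%) were lower, beside 19.8% of all genes, and 2 of 39 (5.13%) were higher, beside 19.9%. The 6 were Mcm2, Mcm4, Mcm6, Plk1, Top2a and Kif11, and the 2 were Aurkb and Birc5. The log2 ratio of Kif11 became -0.61 in vehicle and -0.68 in Dex, that of Top2a -0.49 and -0.50, and that of Plk1 -0.64 and -0.53. Mki67 came to -0.29 in vehicle, where it had been -0.74, and to -0.31 in Dex, where it had been -0.53. Cenpe and Cenpf turned their direction in both pairs, to 0.044 and 0.079 in vehicle and to 0.036 and 0.077 in Dex. The short genes Pcna, Ccnb2, Aurka and Cdc20 came out lower, between -0.22 and -0.28 in vehicle and between -0.29 and -0.34 in Dex. Birc5 was at 0.51 and 0.42. The median of the 39 hardly moved, at -0.18 in vehicle and -0.23 in Dex.

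**Figure D3:**
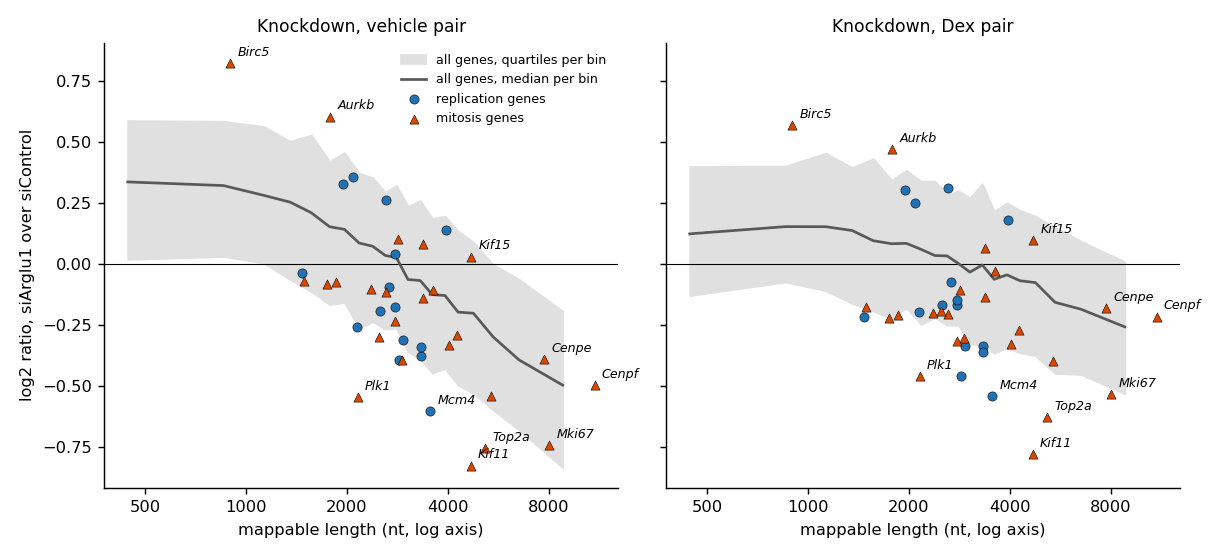
Log2 ratio of siArglu1 over siControl against mappable length (nt, log axis) in the vehicle pair (left) and the Dex pair (right). The grey line and band are the median and quartiles of all genes in 20 bins of length, circles are replication genes and triangles mitosis genes; Kif11, Top2a, Plk1 and Mcm4 lie below the band in both panels, Birc5 and Aurkb above it, and Cenpe and Cenpf within reach of the line.

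Other genes of the same pathways were listed by function, 142 in all, of which 138 passed the minimum of 75 reads. Of 46 further replication genes, 3 were lower by 0.3 in both pairs and 5 were higher. Of 31 regulators of G1/S and of cell cycle exit, 4 were lower and 6 were higher. Of 61 further mitosis genes, 9 were lower and 8 were higher. Of all genes compared, 21.4% were lower and 20.5% were higher by this size. Their medians in vehicle were 0.058, 0.074 and 0.012, and in Dex -0.0061, 0.039 and 0.0079, so the lean of the 39 to lower values was not seen in the wider lists.

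Of these genes, the 10 that moved most in both pairs are named here, and 8 of them went further than any of the 39 by the smaller of their ratios. Tfdp1, the DP partner that E2F factors need to bind DNA, had cRPKM of 261.6 (Veh) and 257.57 (Dex) in siControl cells against 83.49 (Veh) and 90.36 (Dex) in siArglu1 cells. Its log2 ratios were -1.61 (-1.65 to -1.58) and -1.52 (-1.55 to -1.49). Ccnd3, a D-type cyclin, had 17.19 and 18.95 against 52.15 and 60.3, with log2 ratios of 1.63 and 1.66. In both genes the control and knockdown libraries were far apart. Cdkn2c, an inhibitor of the kinases of D-type cyclins, was at 35.3% and 34.5% of siControl, and Rbl2, which encodes a pocket protein of the retinoblastoma family, had log2 ratios of -0.99 and -0.85. Mycn, the oncogene of neuroblastoma, was at 1.24 and 1.29, and E2f6, a repressor of the E2F family, was at 0.75 and 0.62. Zwint, a kinetochore gene, was at 66.9 and 67.9 cRPKM in siControl and at 217 and 209 in siArglu1, and Gins2, a subunit of the active helicase with CDC45, was at 202% of siControl in both pairs. Cdc27, a subunit of the anaphase-promoting complex, was at -1.17 and -1.09, and Wee1, the kinase that holds CDK1 back, was at 0.73 and 0.79.

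Some genes outside that rule were chosen after their values were seen. Foxm1 and Mybl2 (B-MYB), the factors of the mitotic program, were at 0.44 and 0.34 in vehicle and at 0.60 and 0.37 in Dex. Myc was at 0.38 and 0.44, and Ccnd1, which encodes cyclin D1, at -0.41 and -0.31. Racgap1, which joins Kif23 in the complex that recruits Ect2 to the midzone, was at -0.52 and -0.49.

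The promoters of genes that move with the cell cycle carry known motifs, and 33 of the 39 genes had a promoter in the RefSeq table of mouse build GRCm38.p6. Mcm4, Ccne2, Ccna2, Aurkb, Kif20a and Tpx2 were not matched. The 250 bases before each start were searched on both strands, and a gene with 2 starts (3 of the 33) was counted if either held a match. The CHR (TTTGAA) was in 9 of 20 mitosis genes (45.0%) and 2 of 13 replication genes (15.4%), beside 18.3% of all 27025 genes counted the same way. The CCAAT box (CCAAT) was in 16 of 20 (80.0%) and 9 of 13 (69.2%), beside 37.5%. An E2F site (TTTCCCGC, TTTGGCGC, TTTCGCGC or TTTGCCGC, which can overlap one another) was in 2 of 20 (10.0%) and 4 of 13 (30.8%), beside 2.16%. The full palindrome of the GR element was in none of the 33, beside 0.0111% of all genes. The letters say nothing on whether a factor was bound.

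The last 120 bases before the start are shown for 6 genes, chosen after the knockdown values were seen, so that the motifs can be read. Birc5 had the highest ratios, and Kif11, Top2a, Mki67, Plk1 and Mcm6 were lower by 0.3 in both pairs. They do not stand for all members. Cdc45, with ratios of 0.36 and 0.25, has a CHR and a CCAAT box within 250 bases and is not shown. Capitals mark matches to the CHR, the CCAAT box or an E2F site on either strand.
Kif11 (chr19:37376262-37376381, plus strand): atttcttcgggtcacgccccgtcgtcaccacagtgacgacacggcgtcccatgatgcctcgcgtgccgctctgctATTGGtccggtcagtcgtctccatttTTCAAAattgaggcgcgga
Top2a (chr11:99024190-99024309, minus strand): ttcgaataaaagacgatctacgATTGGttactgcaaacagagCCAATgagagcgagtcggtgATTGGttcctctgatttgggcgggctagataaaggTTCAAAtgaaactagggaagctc
Mki67 (chr7:135716380-135716499, minus strand): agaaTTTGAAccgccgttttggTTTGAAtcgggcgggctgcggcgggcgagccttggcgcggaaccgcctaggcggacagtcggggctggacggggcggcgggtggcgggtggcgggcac
Plk1 (chr7:122159315-122159434, plus strand): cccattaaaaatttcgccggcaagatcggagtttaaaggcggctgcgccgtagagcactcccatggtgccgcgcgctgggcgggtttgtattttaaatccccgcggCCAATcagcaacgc
Mcm6 (chr1:128359706-128359825, minus strand): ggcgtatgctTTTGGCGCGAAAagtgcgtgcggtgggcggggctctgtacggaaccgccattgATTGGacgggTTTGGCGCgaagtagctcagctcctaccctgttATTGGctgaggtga
Birc5 (chr11:117849117-117849236, plus strand): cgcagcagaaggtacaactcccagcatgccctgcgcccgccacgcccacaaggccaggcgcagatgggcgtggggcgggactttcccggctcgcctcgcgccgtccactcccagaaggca

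Kif11 has 1 CHR and 1 CCAAT box in this stretch, and Top2a has 1 CHR and 3 CCAAT boxes. Mki67 has 2 CHR and 0 CCAAT boxes, and Plk1 has 1 CCAAT box and 0 CHR. Mcm6 has 2 CCAAT boxes and 3 E2F matches, 2 of which overlap. Birc5 has none of these motifs here. The 25 members with a CCAAT box within 250 bases had a median knockdown ratio of -0.26 in vehicle and -0.22 in Dex, and the 8 without it 0.036 and -0.034. The 11 members with a CHR had medians of -0.33 and -0.30, and the 22 without it -0.12 and -0.19. These medians are a description and were not tested.

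The second question was whether Dex changed these genes in 4 h. No member reached a log2 ratio of 0.5 in siControl, where 2.94% of all genes did, or in siArglu1, where 3.66% did. None reached 0.3 either, where 7.25% of all genes did in siControl and 11.7% in siArglu1. In siControl the ratios ran from -0.11 (Cdc6 and E2f1) to 0.094 (Aurkb), with a median of -0.040 beside -0.0034 for all genes. The intervals, of counting error only, lay below 0 for 20 members, above it for 2 and across it for 17. They were not counted over all genes. By sign alone, 36 of the 39 were below 0, beside 6457 of the 12497 genes. Summed over the 39, CPM in Dex was 97.0% of vehicle in siControl and 97.1% in siArglu1.

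In siArglu1 cells the spread was wider, from -0.23 (Birc5) to 0.24 (Cenpf), and it went with length. Spearman's rho of the Dex ratio with mappable length was 0.71 among the 39 and 0.54 among all genes in siArglu1, beside -0.19 and -0.16 in siControl. Cenpf, Mki67 and Cenpe, the longest members, had log2 ratios of 0.24 (0.20 to 0.27), 0.17 (0.15 to 0.19) and 0.17 (0.12 to 0.22). With the length trend removed they were at -0.011, -0.018 and -0.015. Cdk1 (log2 ratio -0.22, -0.24 to -0.20) and Tyms (-0.14, -0.19 to -0.10) have lengths of 2837 and 2791 nt, where the trend itself lies near 0, so that its removal left them in place. In all, 16 of the 39 changed the sign of their Dex ratio in siArglu1 under at least 1 other setting, as against 1 in siControl. Changes of sign were not counted over all genes, which share the trend on length, so this is not shown to be particular to the members.

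**Figure D4:**
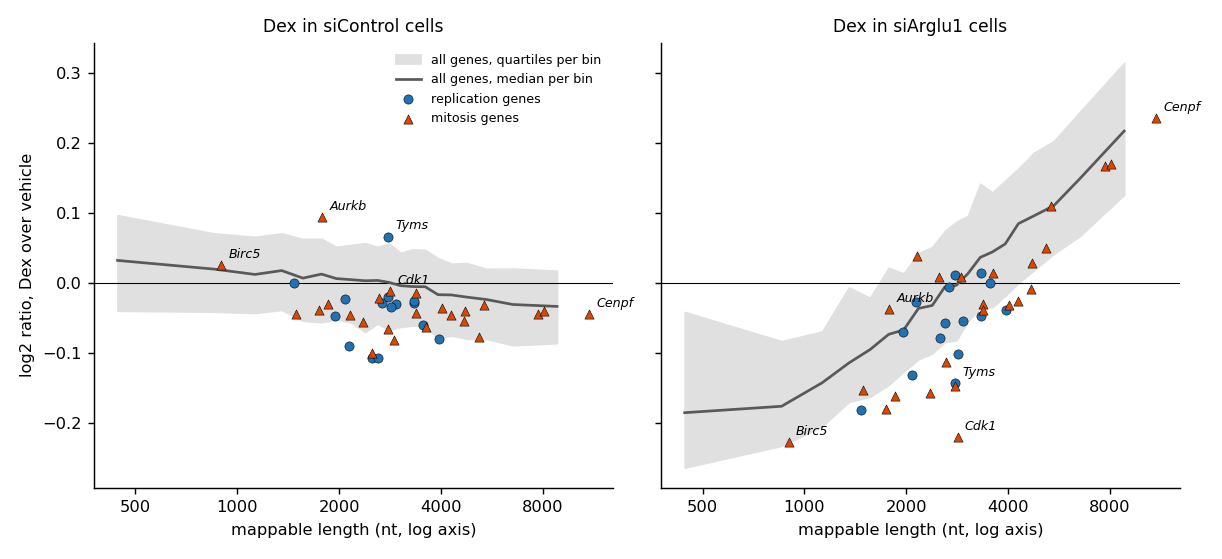
Log2 ratio of Dex over vehicle against mappable length (nt, log axis) in siControl (left) and siArglu1 (right) cells, with the median and quartiles of all genes in 20 bins of length in grey. In siControl all 39 genes lie between -0.11 and 0.094; in siArglu1 they rise with length from -0.23 for Birc5 to 0.24 for Cenpf, with Cdk1 below the band.

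The third question was whether the loss of Arglu1 changed how these transcripts were spliced. For 37 of the 39 genes, 303 events could be compared, 116 cassette exons, 115 alternative acceptor sites (Alt3) and 72 alternative donor sites (Alt5). PSI gives, in percent, how often an exon is included or a site is used. By a difference of 15 PSI, 1 of the 303 passed in the vehicle pair, where 1.96% of all 57183 events did, and 0 passed in the Dex pair, where 1.52% did. The median absolute difference was 0.22 PSI in vehicle and 0.25 PSI in Dex. For Dex, 1 of the 303 passed in siControl, where 0.719% of all events did, and 0 in siArglu1, where 0.948% did. The former was a 98-nt exon of Kif15 (-19.34 PSI), whose coverage was scored as LOW in 2 libraries.

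The 1 event past 15 PSI in the vehicle pair was a 93-nt cassette exon of Ect2 (ENSMUSG00000027699), at chr3:27047717-27047809 in mm9. Its PSI was 39.39 (Veh) and 30.82 (Dex) in siControl cells and 21.08 (Veh) and 28.37 (Dex) in siArglu1 cells, with the highest coverage score (SOK) in each. Knockdown came with -18.31 PSI in vehicle but with -2.45 PSI in Dex, so that it passed 15 PSI in the vehicle pair alone. Dex itself moved the exon by -8.57 PSI in siControl and by 7.29 PSI in siArglu1. In GENCODE M21 the exon with this length and these distances to its neighbours is in 4 of the 13 Ect2 transcripts and is coding in all 4. Its length of 93 nt keeps the reading frame when the exon is skipped.

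In Mcm7, the MCM gene with the ratio closest to 0, the cassette exon that moved most is one of 169 nt at chr5:138607138-138607306 in mm9, with PSI of 69.03 (Veh) and 66.9 (Dex) in siControl cells and of 80.52 (Veh) and 81.4 (Dex) in siArglu1 cells, all with a score of SOK. Both siArglu1 libraries lay above both siControl libraries. The differences of 11.49 PSI in vehicle and 14.5 PSI in Dex are below 15. Its length is not a multiple of a codon, so that skipping it shifts the frame. The exon with this length and these neighbour distances is in 1 of the 10 Mcm7 transcripts of GENCODE M21, and is coding there.

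Both exons are printed 5′ to 3′ in the sense of the transcript. They were chosen after the PSI values were seen, as the member exons with full coverage that moved most. The letters are from GENCODE M21 transcripts (GRCm38), and no base is set in capitals.
Ect2 (chr3:27148795-27148887, minus strand): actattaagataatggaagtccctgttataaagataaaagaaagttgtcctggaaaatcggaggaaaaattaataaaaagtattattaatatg
Mcm7 (chr5:138165910-138166078, minus strand): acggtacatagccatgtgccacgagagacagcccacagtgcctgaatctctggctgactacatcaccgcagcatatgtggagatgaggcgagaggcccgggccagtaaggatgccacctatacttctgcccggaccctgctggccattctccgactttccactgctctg

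The Ect2 exon has a GC content of 25.8% and the Mcm7 exon of 58.0%. In Tyms, 2 exons of 83 and 122 nt were included less in the knockdown. The 83-nt exon had PSI of 28.59 and 26.98 in siControl against 14.72 and 16.03 in siArglu1, and the 122-nt exon had 24.27 and 26.56 against 12.9 and 17.07. Both siArglu1 libraries were below both siControl libraries for each exon. Of the scores deposited beside these exons, 1 read OK in every library while another read N, VLOW or LOW, so their support is weaker than that of Ect2 and Mcm7. The other events past 10 PSI in a knockdown pair were the 98-nt exon of Kif15 and sites of Bub1, Cenpe, Tpx2 and Aurka. Of these 5 only Tpx2 (10.63 and 4.1 PSI) and Cenpe (11.94 and 2.17 PSI) had the same direction in both pairs.

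**Figure D5:**
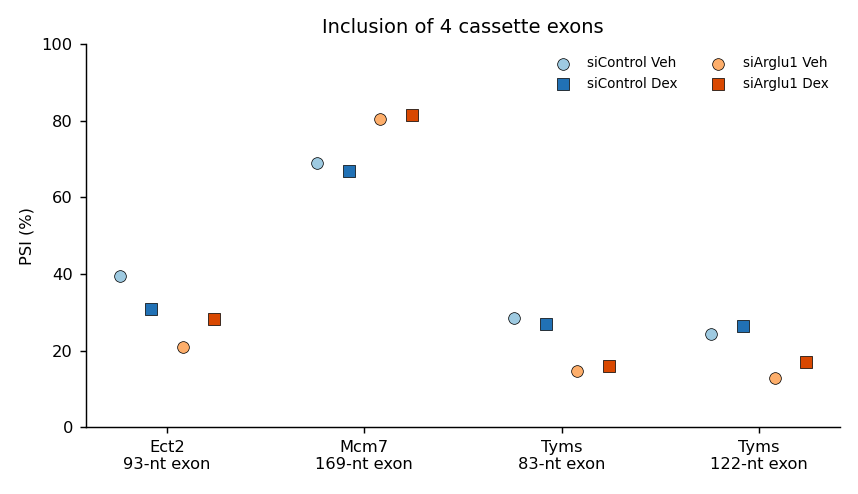
PSI (percent) of 4 cassette exons of Ect2, Mcm7 and Tyms in siControl (blue) and siArglu1 (orange) cells with vehicle (circles) or Dex (squares), 1 library per point. For Mcm7 both siArglu1 points lie above both siControl points, for Tyms both lie below, and for Ect2 the knockdown difference is -18.31 PSI in vehicle and -2.45 PSI in Dex.

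Reads of neighbouring genes could touch some values, since the kit does not mark strand. In GENCODE M21, exons of 10 of the 39 genes overlap exons of another gene, and for 4 of them the overlap takes at least 10% of their exonic bases. These are Kif20a (29.3%, with Cdc23), Ccne2 (17.4%, with Ints8), Ccna2 (12.5%, with Exosc9) and Prc1 (11.1%, with Rccd1), each with a gene on the opposite strand. Reads of both partners cannot be told apart there. Cdc23 had log2 ratios of 0.30 in vehicle and 0.39 in Dex, while Kif20a had -0.30 and -0.19.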

How the data were processed

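mRNA of 3 pooled cultures per group was sequenced by the authors as TruSeq V2 libraries on a HiSeq2500, with 1 library in each of the 4 groups. The submitters' processing notes name Bowtie and mm9, and the study names vast-tools for splicing. Their versions and the annotation were not given in the sources used here. Among the files are the deposited counts of reads per gene, not normalized, and the authors' cRPKM, an RPKM corrected for mappability (1114 genes have none). A blank count was taken as 0. The splicing tables deposited by the authors hold PSI as a percent, coverage scores in words and, for Alt3 and Alt5, junction reads. Columns with the authors' own ratios of cRPKM were not used.

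From there, counts were scaled by TMM (edgeR 4.0.16 in R 4.3.3), and log2 ratios of CPM (prior count 1) were taken for genes with at least 75 reads in all. The libraries have 66074574 to 86541444 reads on genes. Sizes of 0.81 and 0.3 (knockdown), 0.5 (Dex) and 15 PSI are rules of size, not tests, since there is 1 library per group. An event was compared when each of the 4 libraries had a PSI and at least 3 were scored LOW or better. Intervals are exact (Clopper-Pearson) at 95% and cover counting error only. Mappable length came from reads and cRPKM, and its trend was removed by lowess (statsmodels 0.14.6, span 0.3, 3 iterations). Alternatives were DESeq2 1.42.0 size factors, total reads, cRPKM (pseudocount 0.1), a prior count of 5, no minimum, other sizes, additive edgeR and DESeq2 models and, chosen after seeing the data, the trend on GC percent of the longest transcript. The scripts were tested on simulated data.

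The 39 genes, the lists and the tests were chosen with earlier results of these data known. Named were all members, the 10 other pathway genes with the largest smaller log2 ratio of both pairs in 1 direction (cRPKM of at least 1), every member event past 15 PSI in a knockdown pair, and Arglu1. Member events between 10 and 15 PSI in a knockdown pair are also named, outside this rule. Other names outside it are given as such or only for context. The siControl Veh library enters both the vehicle knockdown pair and the siControl Dex pair, so these were not set against each other. A further gene of the neuronal marker list is not reported here.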

Additional observations from a re-analysis of the deposited data

Results flagged for a closer look

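Among the 39 genes, 5 had intervals of counting error that lay wholly on opposite sides of 0 in 2 pairs that share no library. How many of all genes would meet this rule was not counted, and at this depth even small ratios can meet it. There is 1 library per group, so the differences were not tested. The knockdown log2 ratio of Cdk1 was 0.10 in vehicle and -0.11 in Dex, a difference of -0.21. The Dex log2 ratio of Tyms was 0.066 in siControl and -0.14 in siArglu1, a difference of -0.21. That of Cenpf was -0.045 and 0.24 (difference 0.28), that of Mki67 -0.040 and 0.17 (0.21), and that of Top2a -0.077 and 0.050 (0.13). Cenpf, Mki67 and Top2a have mappable lengths of 10975, 8048 and 5172 nt, and Cdk1 and Tyms of 2837 and 2791 nt. With the length trend removed, the Dex log2 ratios in siControl and siArglu1 were -0.0024 and -0.011 for Cenpf, -0.0046 and -0.018 for Mki67, and -0.051 and -0.057 for Top2a, so none of these 3 was left with opposite signs. Those of Tyms were 0.071 and -0.14, and the knockdown ratios of Cdk1 were 0.11 and -0.11.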

How the results depend on the processing

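Under the alternatives, 72 of 90 values held and 18 moved. A count was also taken as held where it changed by little, such as from 12 to 10 or from 3 to 2. None of the medians changed sign. The median ratios of replication and mitosis genes and the counts for Dex held under each that was run. Members higher by 0.3 in both pairs (3) were 2 with DESeq2 size factors, total reads, cRPKM as deposited, and the length or the GC trend removed. The count of members past 0.81 in vehicle (2) was 1 with total reads, with cRPKM as deposited, without the minimum on reads and with the GC trend removed, 0 with the length trend removed, 8 at a size of 0.5, 0 at a size of 1, and 23 in the additive edgeR and in the additive DESeq2 model. In Dex (0), it was 5 at a size of 0.5 and 23 in either additive model. Over all genes, the additive edgeR model called 30.9% lower and 30.8% higher, so the 23 are not particular to the members. Shares of all genes at sizes of 0.5 and 1 and in the DESeq2 model were not counted. Members lower by 0.3 in both pairs (12) were 6 with the length trend removed. Their share thus went from 30.8%, above the 21.4% of all genes, to 15.4%, below the 19.8% of all genes. Member events past 15 PSI in vehicle (1) were 7 at a size of 10 PSI, 0 at 25 PSI and 3 without the minimum on coverage. In Dex (0), they were 4 at 10 PSI and 2 without the minimum. The events added without the minimum rest on 13 junction reads or fewer in each library. At 15 PSI, 1.96% of all events passed in vehicle and 1.52% in Dex. Shares of all events at the other settings were not counted, so these member counts have nothing to be set against. No paired analysis was possible because each group has 1 library, so that no 2 groups share more than 1 replicate; the additive models above, which take Dex as a term, come nearest to it. Depth is not the limit for the 39 genes, whose widest interval spans 0.15 on the log2 scale; the missing replicates are.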
